A study of Arabidopsis thaliana with 15 samples.

Results

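The transcripts described here are those whose level in the Arabidopsis double mutant pp1r3-2 topp4-1 was set against the level that both single mutants give when their effects are added. For each gene the interaction is the change that topp4-1 made in the pp1r3-2 background minus the change it made in wild type, on the log2 scale. It uses 12 of the 15 libraries and was tested in 20037 of the 33024 genes of the count table, those with enough counts. The 4 groups, of 3 libraries each, were wild type, pp1r3-2, topp4-1 and pp1r3-2 topp4-1, all in the Columbia background, with RNA from leaves taken 21 days after germination. Plants grew in a greenhouse at 23 °C with 16 h of light and 8 h of dark, without any treatment. The libraries of the line topp-7m entered only the shared estimate of the spread. The labels describe neither the alleles nor the number of plants behind a library, and they do not say that libraries came from separate plants. The p-values therefore measure the spread between libraries, which may be technical.

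TOPP genes encode the catalytic subunits of plant type 1 protein phosphatase, which removes phosphate from serine and threonine. Such subunits act in complexes with regulatory subunits that steer them to their substrates, and the series names PP1R3 as a regulatory subunit. An interaction of 0 means that the fold changes of both single mutants multiply in the double mutant. A positive interaction means that the double mutant lay above that product, and a negative one that it lay below. Either sign can arise when the double mutant resembles 1 of its parents, so levels in all 4 genotypes are given beside the main interactions.

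The transcripts with a positive interaction included the PDF1.2 defensins and the cold and dehydration gene RD29A. Those with a negative interaction included the dark-inducible genes ASN1 and SEN1. The upstream bases of 6 such genes are printed here because the motifs in them are counted beside the results. The sequences are the 250 bases before the annotated start, 5′ to 3′ on the gene's own strand, from the TAIR10.1 assembly of RefSeq. Capitals mark the GCC box (GCCGCC) in the genes PDF1.2A and ACT, the DRE core (CCGAC) in RD29A and XERO2, the I box (GATAAG) and the G box (CACGTG) in ASN1, and the I box in SEN1, on either strand.
PDF1.2A (AT5G44420, chr5:17907639-17907888, minus strand): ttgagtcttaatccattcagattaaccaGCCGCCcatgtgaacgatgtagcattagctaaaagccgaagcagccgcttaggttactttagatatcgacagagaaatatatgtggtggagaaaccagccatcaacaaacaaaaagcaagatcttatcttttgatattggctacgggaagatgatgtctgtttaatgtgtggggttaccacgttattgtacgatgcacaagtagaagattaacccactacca
ACT (AT5G61160, chr5:24608355-24608604, plus strand): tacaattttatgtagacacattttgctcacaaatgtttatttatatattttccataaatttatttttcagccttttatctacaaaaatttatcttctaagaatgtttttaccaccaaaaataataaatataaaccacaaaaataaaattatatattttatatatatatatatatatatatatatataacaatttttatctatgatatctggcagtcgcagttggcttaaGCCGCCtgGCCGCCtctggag
RD29A (AT5G52310, chr5:21240467-21240716, plus strand): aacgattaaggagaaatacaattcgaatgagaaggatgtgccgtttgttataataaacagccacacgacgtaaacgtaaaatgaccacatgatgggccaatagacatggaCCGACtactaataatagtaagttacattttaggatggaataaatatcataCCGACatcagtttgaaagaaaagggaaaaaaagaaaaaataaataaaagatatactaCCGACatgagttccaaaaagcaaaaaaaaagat
XERO2 (AT3G50970, chr3:18940393-18940642, plus strand): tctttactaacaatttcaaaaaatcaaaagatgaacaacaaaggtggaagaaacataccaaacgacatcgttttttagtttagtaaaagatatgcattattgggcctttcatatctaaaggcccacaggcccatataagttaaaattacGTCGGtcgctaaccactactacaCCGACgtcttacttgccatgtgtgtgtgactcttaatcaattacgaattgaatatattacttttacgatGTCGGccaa
ASN1 (AT3G47340, chr3:17441432-17441681, minus strand): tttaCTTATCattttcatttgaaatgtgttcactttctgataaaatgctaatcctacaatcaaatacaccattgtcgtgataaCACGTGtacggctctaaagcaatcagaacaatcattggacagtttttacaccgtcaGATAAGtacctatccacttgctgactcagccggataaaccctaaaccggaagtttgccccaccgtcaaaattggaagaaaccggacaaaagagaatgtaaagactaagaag
SEN1 (AT4G35770, chr4:16944628-16944877, plus strand): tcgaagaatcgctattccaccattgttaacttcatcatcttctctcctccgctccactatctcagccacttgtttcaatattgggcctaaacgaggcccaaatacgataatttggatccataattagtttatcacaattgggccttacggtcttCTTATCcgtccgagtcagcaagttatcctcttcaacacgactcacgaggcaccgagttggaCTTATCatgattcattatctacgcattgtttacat

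The GCC box is the site of ethylene response factors, the DRE core that of CBF and DREB2 factors, and the G box that of bZIP and bHLH factors. The I box is common in promoters that respond to light. The GCC box of PDF1.2A began at position -222 from the gene start, and ACT held GCC boxes at -21 and -13. RD29A held the DRE core at -140, -90 and -33, and XERO2 held it at -101, -78 and -9. A match is a run of letters and says nothing of binding.

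Total counts ran from 17962200 to 20756997 per library, and the values below are CPM, counts scaled to a common library size with TMM factors. Replicates differed by more than sampling noise in each pair (5.76 to 26.7 chi-square units per gene), and none was merged. A pair of libraries stood apart. Wild-type replicate 3 had 0.0813% of its counts from chloroplast-encoded genes, against at most 0.0208% in any other library. Replicate 3 of the double mutant had a residual spread of 0.419 log2 units around its group, against 0.21 to 0.289 in the other 11. Its summed level of 13 flower and shoot meristem markers was 3.33 CPM, against 19.6 and 23.8 CPM in the other libraries of its group. In bulk leaf RNA, fewer cells of a type and less RNA per cell cannot be told apart.

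The interaction covered a large share of the leaf transcriptome. In the quasi-likelihood test of edgeR, adjusted by Benjamini-Hochberg over all genes tested, 7679 genes (38.3%) passed an adjusted p of 0.05. Of these, 3816 genes (19%) were higher in the double mutant than the sum of the single effects and 3863 (19.3%) were lower. A log2 interaction of at least 1 was reached by 1933 of the higher and 1465 of the lower calls. Without the pair of libraries that stood apart, 7842 genes passed, 6936 of them among the 7679. On a linear CPM scale the interaction kept its sign for 3813 of the 3816 higher calls and for 3862 of the 3863 lower calls.

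In pp1r3-2 plants, the topp4-1 mutation changed few transcripts. In wild type it changed 10726 genes (53.5%), 5411 up and 5315 down, while in pp1r3-2 it changed 7 genes (0.0349%), all of them down. In the pp1r3-2 background 1377 genes had an unadjusted p under 0.05, and DESeq2 called 59 genes, 9 up and 50 down. With replicate number as a block in pp1r3-2 and the double mutant, whose same-numbered libraries varied together, 23 genes were called, all of them down. The median absolute log2 change over all genes was 0.44 in wild type and 0.12 in pp1r3-2. These comparisons share no library. Among the 1572 genes that rose at least 2-fold with topp4-1 in wild type, the median change in pp1r3-2 was -0.06, and 92.4% stayed within 2-fold. Among the 2249 that fell at least 2-fold, the median was 0.02 and 98.1% stayed within 2-fold, against 98.4% of all genes tested. Across the 20037 genes, Pearson's r between both effects was -0.083 and Spearman's rho was -0.071, a description over genes that are not independent replicates.

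**Figure D1:**
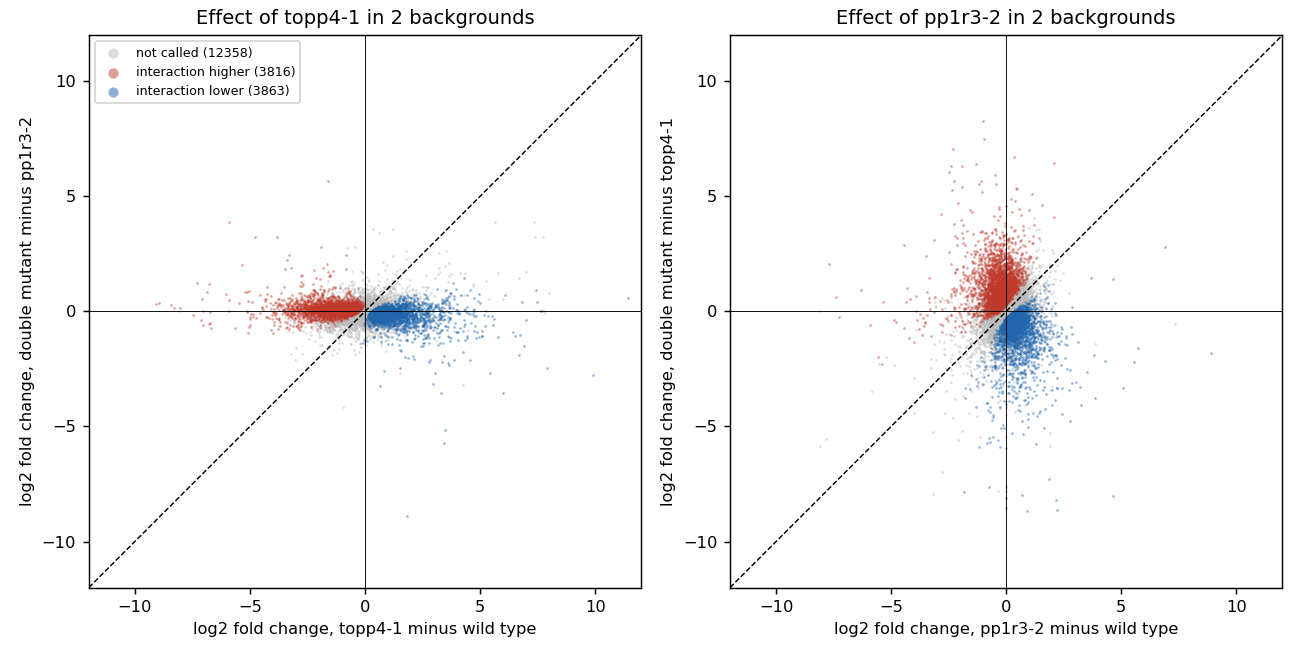
Left, log2 fold change with topp4-1 in wild type (x axis) against that in pp1r3-2 (y axis). Right, log2 fold change with pp1r3-2 in wild type (x axis) against that in topp4-1 (y axis). Each point is 1 of 20037 genes, red for a higher and blue for a lower interaction call, and the dashed line marks equal effects. At the left the points lie along the x axis, with a median absolute change of 0.44 in wild type and 0.12 in pp1r3-2.

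The same interaction is also the difference of the pp1r3-2 effect between the topp4-1 and wild-type backgrounds, and these effects had another pattern. In wild type pp1r3-2 changed 3862 genes (19.3%), with 10.9% of all genes up and 8.33% down, and in topp4-1 it changed 8676 (43.3%), with 21.4% up and 21.9% down. Both effects passed the test for 2188 genes, which are 56.7% of the first list and 25.2% of the second. Of these, 927 moved the same way and 1261 moved in opposite directions. In detail, 739 rose with pp1r3-2 in wild type and fell with it in topp4-1, and 522 fell in wild type and rose in topp4-1. Pearson's r over all genes was -0.096 and Spearman's rho -0.142. The double mutant differed from wild type in 2631 genes (13.1%), with 7.66% up and 5.47% down, a count that was 887 without the pair of libraries that stood apart.

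For most genes the double mutant lay nearest to pp1r3-2. Over all genes tested, its mean log2 level was closest to pp1r3-2 for 52.3%, to wild type for 25.7%, to topp4-1 for 12.9% and to the additive value for 9.12%. Among the higher calls it was closest to pp1r3-2 for 67.2%, to wild type for 27.5% and to topp4-1 for 5.35%. Among the lower calls these shares were 62.3%, 30.9% and 6.83%. All 3816 higher calls had a negative topp4-1 effect in wild type, with a median of -0.95, and 3858 of the 3863 lower calls had a positive one, with a median of 0.72. These shares are a description, since the interaction and the single effects share libraries. Same-numbered libraries of pp1r3-2 and the double mutant varied together (r of 0.256, 0.217 and 0.447). The part of this in the closeness of both groups was not tested.

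The defensin branch of jasmonate and ethylene defence held 4 of the 6 highest interactions in a ranking of called genes. That ranking held nuclear protein-coding genes with a symbol and a mean of at least 5 CPM. Of 9 genes on the list, 5 were called higher and 1 lower, with a median of 2.80 against -0.01 over all genes. The interaction calls of each list below are to be read beside 19% higher and 19.3% lower among all genes tested. PDF1.2A encodes an antifungal plant defensin and was at 759, 322 and 762 CPM in the wild-type libraries, 183, 179 and 125 in pp1r3-2, 0.356, 0.619 and 5.72 in topp4-1 and 361, 119 and 66.2 in the double mutant. The topp4-1 libraries lay below all others, and those of pp1r3-2 and the double mutant overlapped. The interaction was 8.22 ± 1.27 (adjusted p = 0.00049). PDF1.2C, PDF1.2B and PDF1.3 had interactions of 8.72 ± 1.33, 7.02 ± 1.19 and 6.70 ± 0.97, but near-identical copies of this family cannot be told apart by read counts alone. In wild type, replicate 2 held less than the other libraries for each of these defensins.

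The factors upstream of the defensins moved in opposite directions. ORA59, an ERF factor that activates PDF1.2, was at 23.0, 15.5 and 24.4 CPM in wild type, 18.1, 20.8 and 27.3 in pp1r3-2, 1.83, 2.79 and 3.7 in topp4-1 and 21.3, 15.3 and 12.5 in the double mutant. Only the topp4-1 libraries stood below the rest, and the interaction was 2.47 ± 0.37 (adjusted p = 0.000147). ERF1B, another ERF factor of this branch, was at 3.21, 2.94 and 2.44 CPM in wild type, 3.39, 5.3 and 4.5 in pp1r3-2, 9.25, 8.98 and 10.4 in topp4-1 and 4.53, 3.66 and 3.44 in the double mutant. It was highest in topp4-1, with no overlap, and its interaction was -1.91 ± 0.28 (adjusted p = 9.47e-05). ACT, an agmatine coumaroyltransferase, followed the defensins with 0 to 0.503 CPM in topp4-1, 6.1 to 16 CPM in the double mutant and an interaction of 7.33 ± 1.22 (adjusted p = 0.000658). The GCC box stood in 33.3% of the 9 promoters of the list and in 1.93% of 19318 promoters of tested genes. It stood in 1.73% of the promoters of all genes called higher and in 1.59% of those raised at least 2-fold, and the share of the list rests on 3 promoters.

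**Figure D2:**
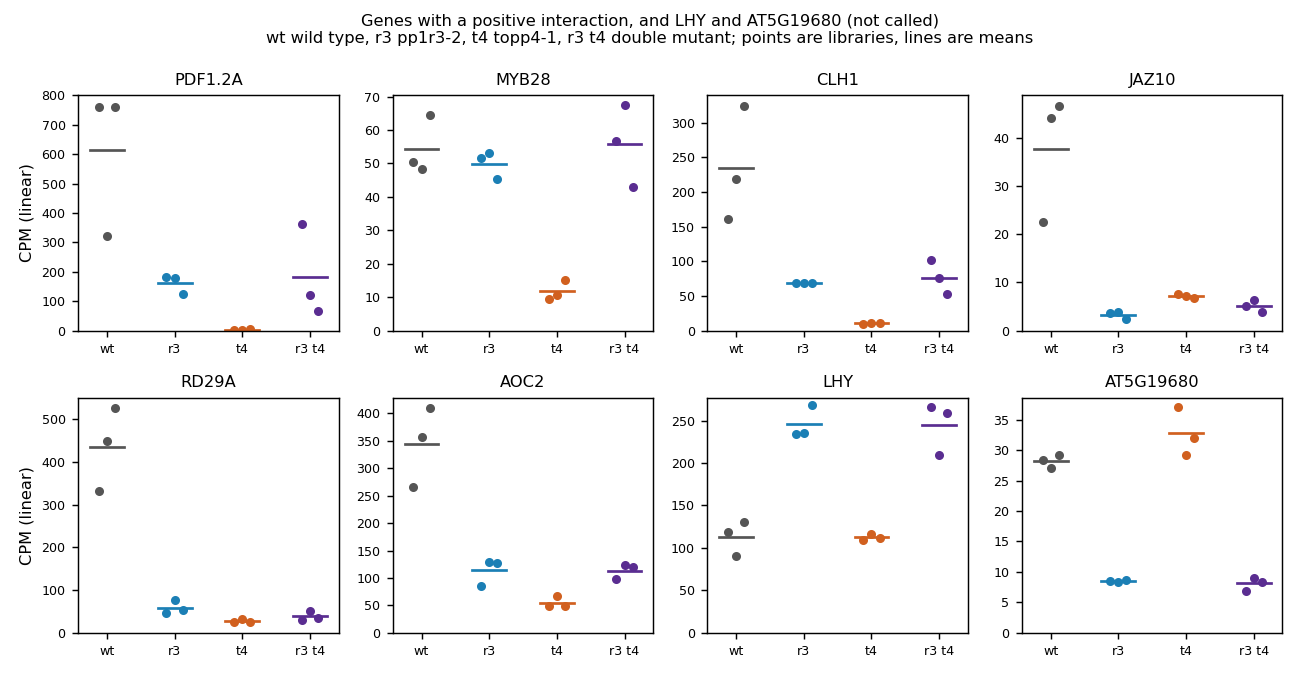
CPM in each of the 3 libraries (points) and their mean (line) in wild type, pp1r3-2, topp4-1 and the double mutant, on linear axes. PDF1.2A, MYB28 and CLH1 were lowest in topp4-1 by a wide margin. Means of RD29A, JAZ10 and AOC2, and also of PDF1.2A and CLH1, lay below wild type in all 3 mutants. LHY and AT5G19680 followed pp1r3-2 in both backgrounds and were not called.

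Most jasmonate genes were also low in all 3 mutants, with topp4-1 nearer to the other mutants than for the defensins. Median log2 changes of the synthesis list against wild type were -1.565 in pp1r3-2, -1.868 in topp4-1 and -1.667 in the double mutant. For the defence list that holds the defensins they were -0.686, -3.114 and -0.844. Jasmonate is made from fatty acids in the chloroplast and the peroxisome, and JAZ proteins repress its targets until the hormone removes them. Of 10 synthesis genes, 7 were called higher and 0 lower (median 1.90). Of 15 repressors and targets, 12 were higher and 0 lower (1.48), and of 8 turnover genes, 5 were higher and 0 lower (2.23). In the synthesis list 7 genes fell with topp4-1 and 8 with pp1r3-2 in wild type, and 7 were down in the double mutant against wild type.

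AOC2, an allene oxide cyclase of jasmonate synthesis, was at 265, 356 and 411 CPM in wild type, 85.1, 129 and 127 in pp1r3-2, 48.3, 67.2 and 48.5 in topp4-1 and 97.7, 123 and 119.6 in the double mutant. The pp1r3-2 and double mutant libraries overlapped, topp4-1 lay lower and wild type higher, and the interaction was 2.65 ± 0.26 (adjusted p = 3.22e-06). For OPR3, the reductase that acts in the peroxisome, all 9 mutant libraries lay at 53.9 to 73.1 CPM, against 147, 216 and 339 CPM in wild type (2.02 ± 0.30, adjusted p = 0.000128). JAZ10, a repressor that jasmonate induces, was at 22.6, 44.0 and 46.5 CPM in wild type, 3.64, 3.9 and 2.38 in pp1r3-2, 7.53, 7.17 and 6.72 in topp4-1 and 5.18, 6.24 and 3.84 in the double mutant. Wild type lay above all mutants, and the mean of the double mutant lay between those of its parents, with an interaction of 3.02 ± 0.40 (adjusted p = 5.00e-05). CYP94C1, which oxidizes the active jasmonate, was at 35.9, 54.6 and 60.3 CPM in wild type and at 4.3 to 7.32 CPM in the 9 mutant libraries (3.13 ± 0.30, adjusted p = 1.85e-06). CLH1, a chlorophyllase induced by jasmonate, took the shape of the defensins, with 161, 219 and 324 CPM in wild type, 68.5, 69.0 and 68.6 in pp1r3-2, 9.05, 11.2 and 11.1 in topp4-1 and 102, 75.3 and 52.1 in the double mutant (4.64 ± 0.40, adjusted p = 2.40e-06).

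Cold and dehydration genes of the abscisic acid list split by direction. Of 22 genes, 8 were called higher and 9 lower, with a median of 0.07. RD29A was at 332, 448 and 526 CPM in wild type, 46.1, 76.5 and 52.8 in pp1r3-2, 25.7, 33.2 and 25.9 in topp4-1 and 30.6, 51.9 and 33.5 in the double mutant. All mutant libraries lay below wild type, and the interaction was 3.35 ± 0.32 (adjusted p = 3.38e-06). The dehydrin XERO2 was at 37.7 to 41.4 CPM in wild type and at 1.52 to 5.49 CPM in the 9 mutant libraries (2.70 ± 0.30, adjusted p = 7.52e-06). COR15A, ERD10, KIN1, KIN2, COR47 and RD22 made up the other higher calls, from 0.87 to 3.95. The DRE core stood in 22.7% of the 22 promoters, which is 5 promoters, and in 13% of all. It stood in 13.3% of the promoters of all genes called higher and in 11.8% of those called lower. Among genes raised at least 2-fold the share was 13.6%. Of 6 genes of cold and drought factors, 3 were called lower (DREB1B, DREB1C and DREB2A, whose proteins bind the DRE core), and the CBF gene DREB1A and the zinc finger genes ZAT10 and ZAT12 did not pass. The count fell to 0 without wild-type replicate 2 or without topp4-1 replicate 1.

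The lower calls of the same list were transcription factors and late responders that were high in topp4-1. ATHB-7, a homeodomain factor induced by abscisic acid, was at 13.3, 13.2 and 12.7 CPM in wild type, 13.4, 30.1 and 26.2 in pp1r3-2, 129, 116 and 106 in topp4-1 and 15.4, 19.0 and 19.6 in the double mutant. The topp4-1 libraries stood above all others, while those of the double mutant lay within the range of pp1r3-2, and the interaction was -3.53 ± 0.31 (adjusted p = 1.63e-06). ATHB-12 and GBF3, a bZIP factor, had interactions of -1.86 ± 0.19 (adjusted p = 3.09e-06) and -1.61 ± 0.15 (adjusted p = 1.20e-06). In the list of abscisic acid receptors, PP2C phosphatases and kinases, 11 of 19 genes were lower and 3 higher. PP2CA, a phosphatase that holds the pathway off, was at 78.6, 78.1 and 63.0 CPM in topp4-1 and at 24.9 to 56.3 CPM in the other libraries (-1.78 ± 0.23, adjusted p = 4.39e-05). PYL7, a receptor, and SNRK2.3, a kinase of the pathway, had interactions of -1.39 ± 0.17 (adjusted p = 2.18e-05) and -1.29 ± 0.18 (adjusted p = 4.85e-05). PYL4, another receptor, had a positive one of 0.80 ± 0.13 (adjusted p = 0.000197).

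Senescence and sugar starvation genes had the most negative median of the 30 lists. Of 18 genes, 14 were called lower and 0 higher (median -1.74), and 15 rose with topp4-1 in wild type. ASN1, an asparagine synthetase induced in darkness, was at 209, 341 and 117 CPM in wild type, 307, 176 and 243 in pp1r3-2, 1258, 1339 and 1211 in topp4-1 and 244, 109 and 220.3 in the double mutant. The topp4-1 libraries stood apart and the other 9 overlapped, with an interaction of -2.86 ± 0.59 (adjusted p = 0.00237). SEN1 (AT4G35770, symbol STR15 in the table) was at 518, 644 and 566 CPM in topp4-1 and 124, 91.05 and 181 in the double mutant (-3.11 ± 0.40, adjusted p = 5.05e-05). BGLU30, a beta-glucosidase, was at 152, 103 and 155 CPM in topp4-1 and at 2.01 to 9.18 CPM in the other 9 libraries (-4.90 ± 0.62, adjusted p = 7.43e-05).

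Of 5 class II trehalose phosphate synthase genes on the list, 4 were called lower. TPS9 was at 43.0, 39.9 and 32.8 CPM in wild type, 114, 106 and 133 in pp1r3-2, 165, 162 and 162 in topp4-1 and 65.9, 68.7 and 93.4 in the double mutant. Its pp1r3-2 and topp4-1 libraries both lay above wild type, and the double mutant lay between wild type and the single mutants without overlap, with an interaction of -2.71 ± 0.19 (adjusted p = 1.50e-07). For TPS8 and TPS11 the double mutant also lay between wild type and both single mutants without overlap, with interactions of -2.01 ± 0.21 and -2.09 ± 0.18. For TPS10 the double mutant overlapped with wild type (-1.50 ± 0.16), and TPS5 with an interaction of 0.66 did not pass (adjusted p = 0.11). NAC92, a NAC factor that promotes leaf senescence, was at 44.0, 29.0 and 30.0 CPM in wild type, 124, 102 and 146 in pp1r3-2, 155, 147 and 152 in topp4-1 and 75.7, 88.4 and 120.4 in the double mutant (-2.53 ± 0.28, adjusted p = 1.23e-05). The I box stood in 22.2% of the 18 promoters of the list, which is 4 promoters, and in 12.4% of all. It stood in 252 of 1386 promoters of genes lowered at least 2-fold and in 11.9% of those raised at least 2-fold. Lists with mostly higher calls held it more often (ethylene and jasmonate defence 55.6%, aliphatic glucosinolates 31.2%, light harvesting 31%) or less often (jasmonate synthesis 10%). The W box (TTGAC), the site of WRKY factors, stood in 51.9% of the genes lowered at least 2-fold, in 41.1% of those raised at least 2-fold and in 45.2% of all.

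**Figure D3:**
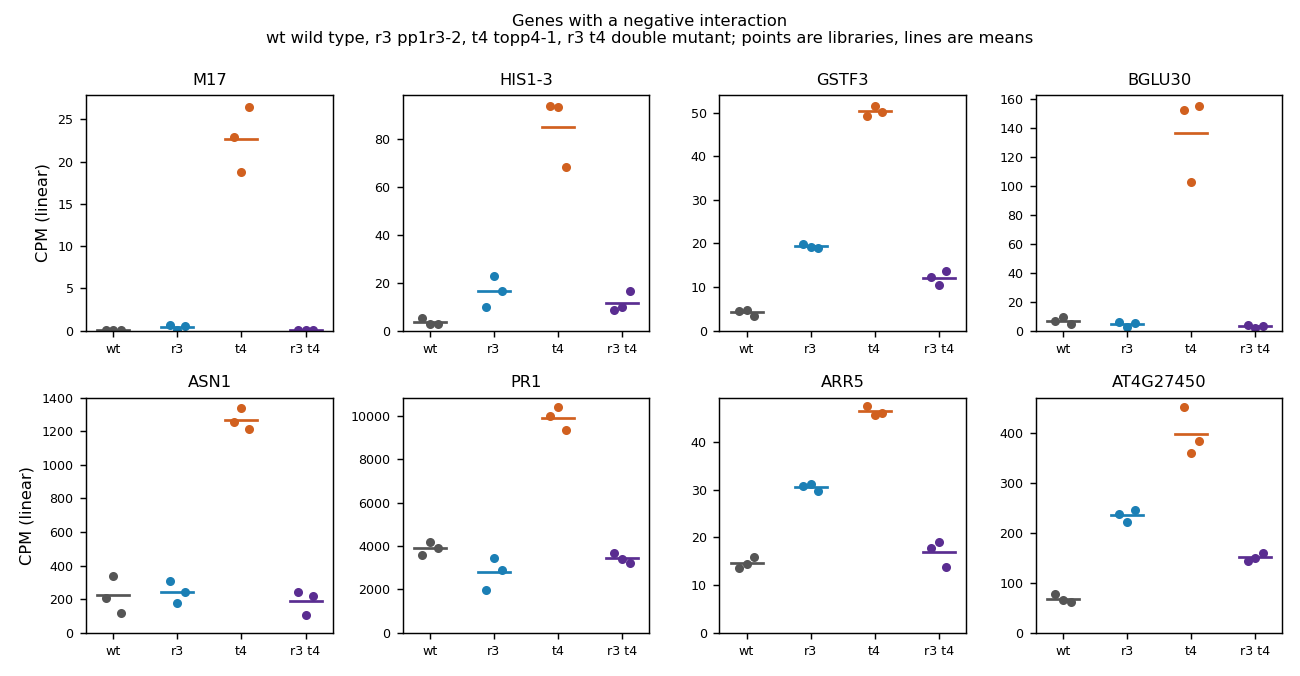
CPM in each of the 3 libraries (points) and their mean (line) in wild type, pp1r3-2, topp4-1 and the double mutant, on linear axes, for genes with a negative interaction. The topp4-1 libraries were highest for each gene shown, and those of the double mutant lay below pp1r3-2 for GSTF3, ARR5 and AT4G27450.

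Salicylic acid defence genes were mostly high in topp4-1, where 14 of 18 responsive genes rose against wild type, beside 27% of all genes. In the double mutant 2 rose, a share near the 7.66% of all genes. Of 18 responsive genes, 11 were called lower and 0 higher (median -0.86), and of 15 synthesis and regulator genes, 8 were lower and 2 higher (-0.53). PR1, the marker of this defence, was at 3589, 4205 and 3929 CPM in wild type, 1995, 3435 and 2916 in pp1r3-2, 9983, 10420 and 9338 in topp4-1 and 3669, 3398 and 3213 in the double mutant. The topp4-1 libraries stood apart, those of pp1r3-2 and the double mutant overlapped, and the interaction was -1.04 ± 0.22 (adjusted p = 0.00163). CBP60G and SARD1, factors that switch on salicylic acid synthesis, had interactions of -1.27 ± 0.21 (adjusted p = 0.000219) and -0.96 ± 0.19 (adjusted p = 0.000917). EDS1B and the salicylic acid receptor NPR1 followed at -0.96 ± 0.20 (adjusted p = 0.00171) and -0.65 ± 0.15 (adjusted p = 0.0025). ALD1, the first enzyme of N-hydroxypipecolic acid synthesis, ran the other way, with 4.58, 5.68 and 7.09 CPM in topp4-1 and 9.81, 15.6 and 25.5 in the double mutant (2.72 ± 0.55, adjusted p = 0.00191). WRKY51 and WRKY38 were at -1.21 ± 0.18 and -1.33 ± 0.22.

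Of 18 NLR immune receptors, 9 were called lower and 0 higher, a count of 5 without pp1r3-2 replicate 3. The helper receptor ADR1 was at 53.8, 46.6 and 44.9 CPM in wild type, 55.6, 57.0 and 58.2 in pp1r3-2, 93.9, 90.09 and 90.95 in topp4-1 and 54.2, 58.6 and 72.5 in the double mutant (-0.80 ± 0.15, adjusted p = 0.000727). In pattern-triggered defence 3 of 17 genes were lower, a share near that of all genes, and no lower call was left without pp1r3-2 replicate 3.

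**Figure D4:**
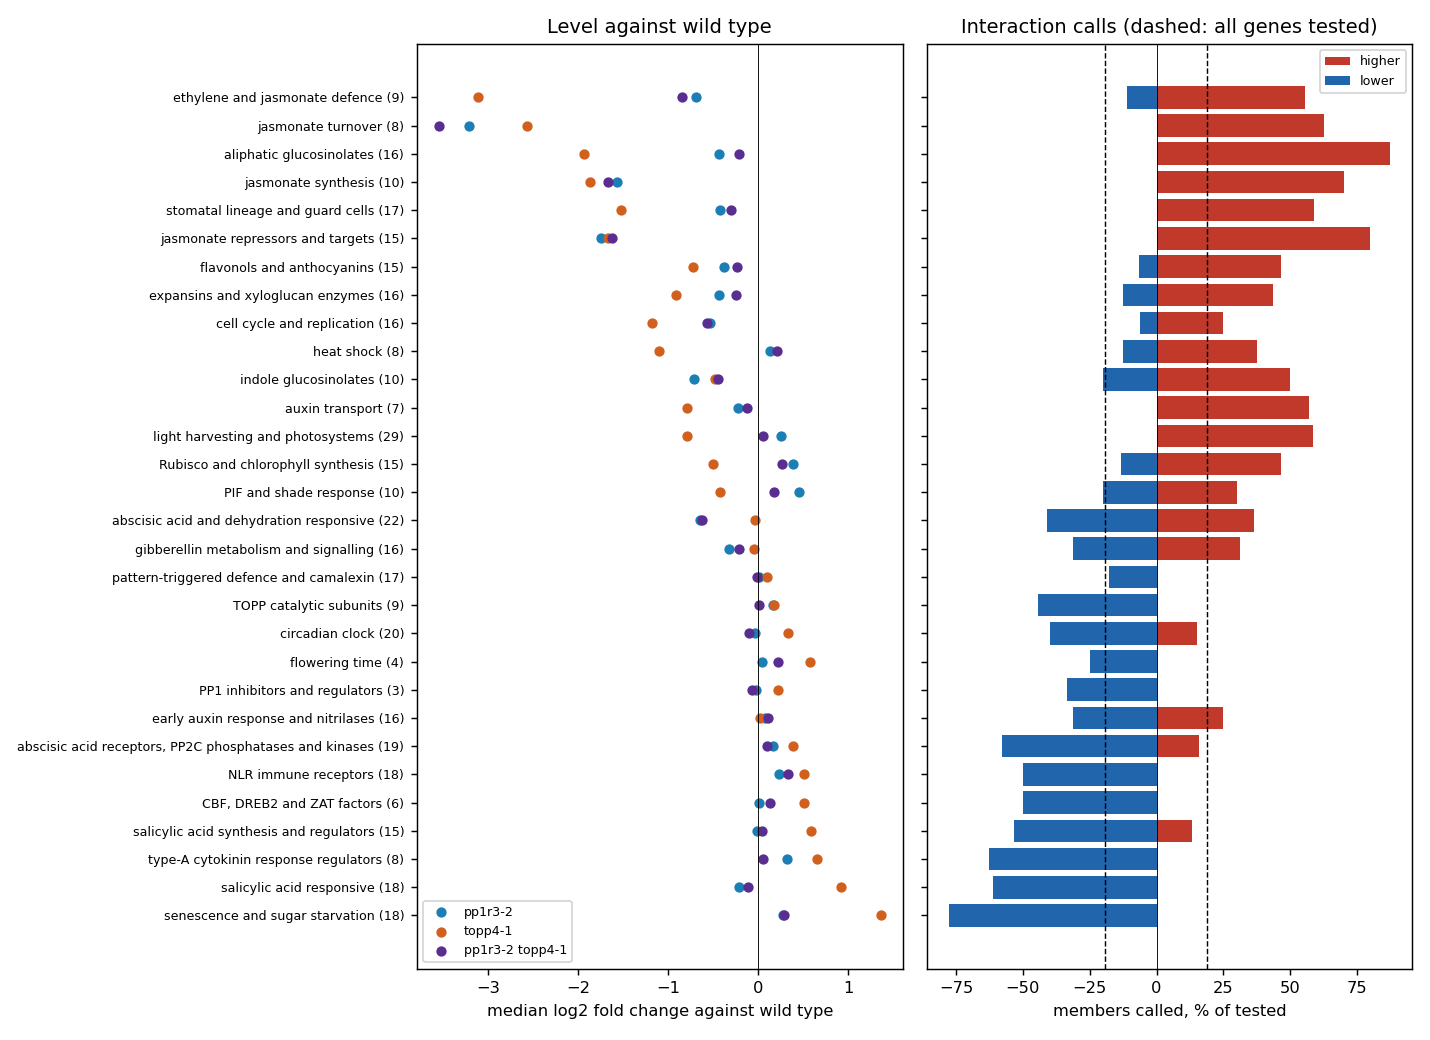
Left, median log2 fold change against wild type of the tested members of each of 30 gene lists (their number in brackets) in pp1r3-2, topp4-1 and the double mutant. Right, members called in the interaction as a percent of those tested, higher to the right and lower to the left. Dashed lines mark the share of all genes tested, 19% higher and 19.3% lower, and the double mutant mostly lies beside pp1r3-2 at the left.

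Aliphatic glucosinolate genes were low in topp4-1. Glucosinolates are sulphur-rich defence compounds of the cabbage family. Of 16 genes, 14 were called higher and 0 lower (median 2.08), and 15 fell with topp4-1 and 2 with pp1r3-2 in wild type, while 0 fell in the double mutant against wild type. MYB28, the factor that switches on the pathway, was at 50.3, 48.2 and 64.6 CPM in wild type, 51.5, 53.0 and 45.3 in pp1r3-2, 9.36, 10.6 and 15.2 in topp4-1 and 56.6, 67.5 and 43.0 in the double mutant. The topp4-1 libraries lay below the other 9, which overlapped, with an interaction of 2.37 ± 0.27 (adjusted p = 1.43e-05). MAM3, which lengthens the methionine chain, and CYP79F1, which makes the aldoximes, had interactions of 1.97 ± 0.31 (adjusted p = 0.000225) and 2.75 ± 0.49 (adjusted p = 0.000833). In the indole branch 5 of 10 genes were higher and 2 lower. There SOT16 was low in all mutants, at 108, 113 and 169.7 CPM in wild type and 49.4 to 68.2 CPM in the 9 mutant libraries (1.52 ± 0.21, adjusted p = 5.00e-05).

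Some flavonol genes shared that shape. Of 15 flavonol and anthocyanin genes, 7 were called higher and 1 lower. FLS1, flavonol synthase, was at 35.2, 38.3 and 41.5 CPM in wild type, 33.9, 27.5 and 20.8 in pp1r3-2, 2.29, 2.63 and 3.2 in topp4-1 and 40.4, 25.2 and 32.0 in the double mutant. The topp4-1 libraries lay far below the rest, and the interaction was 4.06 ± 0.27 (adjusted p = 1.29e-07). CHS, which starts the pathway, UGT78D1, which adds rhamnose, and TT5, chalcone isomerase, had interactions of 3.00 ± 0.28, 3.64 ± 0.26 and 1.98 ± 0.18. The lower call was MYB75, the anthocyanin activator, at 6.61, 7.38 and 7.22 CPM in topp4-1 and 0.508 to 2.57 CPM in the other libraries (-3.37 ± 0.60, adjusted p = 0.000435).

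Photosynthesis genes had smaller interactions of the same sign. Of 29 light harvesting and photosystem genes, 17 were called higher and 0 lower (median 0.59), and 26 fell with topp4-1 in wild type. PETE2, a plastocyanin, was at 2047, 1853 and 1687 CPM in wild type, 2131, 1845 and 2084 in pp1r3-2, 784, 868 and 746 in topp4-1 and 1953, 1923 and 1915 in the double mutant, where only topp4-1 stood apart (1.15 ± 0.15, adjusted p = 4.08e-05). NPQ4, the sensor of excess light, and LHCB6, an antenna protein, had interactions of 1.02 ± 0.15 (adjusted p = 7.03e-05) and 1.06 ± 0.18 (adjusted p = 0.000371). Of 15 Rubisco and chlorophyll genes, 7 were higher and 2 lower. RBCS2B (near-identical copies) and PORC, a protochlorophyllide reductase, had interactions of 2.13 ± 0.21 (adjusted p = 2.31e-06) and 1.07 ± 0.11 (adjusted p = 5.02e-06).

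Genes of growing and patterned leaf cells were also low in topp4-1. Of 17 stomatal genes, 10 were called higher and 0 lower (median 1.65), and 14 fell with topp4-1 in wild type. SPCH, the factor that starts the stomatal lineage, was at 8.04, 10.99 and 10.4 CPM in wild type, 5.42, 4.29 and 2.7 in pp1r3-2, 1.52, 1.6 and 1.74 in topp4-1 and 6.76, 6.08 and 2.65 in the double mutant. Its topp4-1 libraries were the lowest and the double mutant overlapped with pp1r3-2 (2.91 ± 0.53, adjusted p = 0.000652). TMM, a receptor-like protein of the lineage, and MYB60, a guard cell factor, had interactions of 2.29 ± 0.45 (adjusted p = 0.00106) and 1.86 ± 0.32 (adjusted p = 0.0003). Of 16 cell cycle genes, 4 were higher and 1 lower, and the 31.2% called lay below the 38.3% of all genes tested. With topp4-1 in wild type 8 of them fell, and 11 were called higher without replicate 3 of the double mutant. That library held 10.3 CPM of MCM2, a replication helicase, against 20.1 and 22 CPM in the others of its group. Trichome markers, 3 of 5 called higher, summed to 3.1 to 4.44 CPM in topp4-1 and to 6.83 to 17 CPM in the other libraries, and the part of such cells in these results was not tested.

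Auxin and cell wall genes joined this group in part. Of 7 auxin transport genes, 4 were called higher and 0 lower. PIN7, an auxin efflux carrier, was at 94.0, 73.0 and 57.9 CPM in wild type, 54.4, 51.1 and 48.6 in pp1r3-2, 8.75, 9.65 and 14.4 in topp4-1 and 61.1, 53.9 and 55.3 in the double mutant (2.91 ± 0.25, adjusted p = 1.10e-06). PIN3 and AUX1, an influx carrier, had interactions of 1.09 ± 0.16 (adjusted p = 0.000107) and 0.77 ± 0.13 (adjusted p = 0.000299). Of 16 early auxin genes and nitrilases, 4 were higher and 5 lower, beside 19% and 19.3% of all genes tested. NIT2, a nitrilase, was at 98.6, 102 and 90.8 CPM in wild type, 114, 194 and 151 in pp1r3-2, 1526, 1436 and 1515 in topp4-1 and 141, 114 and 225 in the double mutant, with only topp4-1 apart (-3.88 ± 0.35, adjusted p = 2.03e-06). The repressors IAA3 and IAA17 ran the other way at 3.05 ± 0.32 and 3.44 ± 0.46. Of 16 wall enzymes, 7 were higher and 2 lower. In the transport, early auxin and wall lists 57.1%, 56.2% and 56.2% were called, beside 38.3% of all genes tested. EXPA5, an expansin that loosens the wall, had an interaction of 3.86 ± 0.32 (adjusted p = 7.78e-07), and the touch-induced XTH22 one of -1.44 ± 0.25 (adjusted p = 0.000367).

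Gibberellin genes held 5 higher and 5 lower calls among 16, with RGL1, a DELLA repressor, at 2.67 ± 0.36 (adjusted p = 4.24e-05) and GID1C, a receptor, at -0.84 ± 0.12 (adjusted p = 9.55e-05). Of 8 heat shock genes 3 were higher and 1 lower, of 10 PIF and shade genes 3 were higher and 2 lower, and of 4 flowering time genes 1 was lower. In the order named, from gibberellin to flowering time, 62.5%, 50%, 50% and 25% were called, beside 38.3% of all genes tested.

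Some transcripts followed pp1r3-2 in both backgrounds, with no called interaction. LHY, a morning factor of the circadian clock, was at 119, 90.0 and 130 CPM in wild type, 234, 236 and 268 in pp1r3-2, 109.8, 116 and 112 in topp4-1 and 266, 209 and 258 in the double mutant. The libraries with pp1r3-2 lay above all others whether or not they carried topp4-1, and the interaction was -0.0012 ± 0.21 (adjusted p = 0.997). Of 20 clock genes, 3 were called higher and 8 lower, the latter 5 when 1 of 4 libraries was left out (wild-type 2, pp1r3-2 3, topp4-1 1 or double mutant 2). The 55% called stands beside 38.3% of all genes tested, with 19% of all higher and 19.3% lower. The higher calls and a lower count of 5 are near these shares. RVE1, a relative of LHY, was at 26.8, 28.0 and 29.2 CPM in wild type, 104, 97.4 and 102 in pp1r3-2, 48.4, 47.7 and 42.2 in topp4-1 and 87.9, 74.2 and 90.5 in the double mutant (-0.99 ± 0.16, adjusted p = 0.000183). LNK2 and PRR7, further clock genes, had interactions of -1.15 ± 0.21 (adjusted p = 0.000618) and -0.99 ± 0.18 (adjusted p = 0.00063).

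AT5G19680, a leucine-rich repeat gene on the list of phosphatase regulators, behaved likewise. It was at 28.3, 27.0 and 29.1 CPM in wild type, 8.5, 8.42 and 8.74 in pp1r3-2, 37.1, 29.2 and 31.9 in topp4-1 and 6.92, 9.07 and 8.36 in the double mutant. The 6 libraries with pp1r3-2 lay below the 6 without, and the interaction of -0.29 ± 0.16 did not pass (adjusted p = 0.158). The sources used here do not name the locus of PP1R3, so no transcript could be read as a check of the pp1r3-2 label. AtI-2, an inhibitor of the phosphatase, had an interaction of -0.45 ± 0.12 (adjusted p = 0.0077).

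Of 9 TOPP genes, which encode the catalytic subunits, 4 were called lower, 0 were called higher and 5 did not pass. The 44.4% called is near the 38.3% of all genes tested, of which 19.3% were called lower. TOPP1 was at 133, 145 and 112 CPM in wild type, 175, 160.3 and 185 in pp1r3-2, 213, 221 and 226 in topp4-1 and 156, 160.1 and 182 in the double mutant. Its topp4-1 libraries were the highest, with no overlap, and the interaction was -0.82 ± 0.15 (adjusted p = 0.000614). TOPP3, TOPP8 and AT4G11240 had interactions of -0.77 ± 0.13, -0.55 ± 0.12 and -0.44 ± 0.12. TOPP9 and AT5G43380 were on the positive side, at 0.26 ± 0.19 and 0.17 ± 0.35, and did not pass. TOPP4 itself, at 38.2, 37.5 and 34.6 CPM in topp4-1 and 27.9, 30.7 and 33.3 in the double mutant, did not pass (-0.23 ± 0.12, adjusted p = 0.166), and the transcript level does not check a mutation that leaves the transcript in place.

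Of 8 cytokinin response regulators of type A, which damp cytokinin signalling, 5 were called lower and 0 higher (median -0.79). The other 3 did not pass, and ARR15 and ARR16 among them had positive values of 0.60 ± 0.65 and 0.26 ± 0.21. ARR5 was at 13.7, 14.4 and 15.9 CPM in wild type, 30.8, 31.2 and 29.7 in pp1r3-2, 47.6, 45.8 and 46.2 in topp4-1 and 17.8, 19.1 and 13.8 in the double mutant. Both single mutants lay above wild type, and the double mutant overlapped with wild type, with an interaction of -2.52 ± 0.17 (adjusted p = 8.25e-08). ARR5 was 1 of the 7 genes that topp4-1 lowered in pp1r3-2, by 0.85 on the log2 scale (adjusted p = 0.0101). ARR7 and ARR6 had interactions of -1.54 ± 0.17 (adjusted p = 8.02e-06) and -1.88 ± 0.28 (adjusted p = 9.45e-05).

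The other 6 genes that topp4-1 changed in pp1r3-2 had varied shapes. AT4G27450, annotated as an aluminium induced protein, was at 77.0, 66.5 and 60.8 CPM in wild type, 237, 222 and 244 in pp1r3-2, 451, 360 and 384 in topp4-1 and 144, 149.6 and 159 in the double mutant. No groups overlapped, and the interaction was -3.18 ± 0.15 (adjusted p = 6.01e-09). In the same edgeR fit topp4-1 raised it in wild type by 2.55 (adjusted p = 3.50e-10). In pp1r3-2 topp4-1 lowered it by 0.64, narrowly under the cut-off (adjusted p = 0.0465). ARP9, an actin-related protein gene, was at 34.6, 35.4 and 39.6 CPM in pp1r3-2 and at 13.95 to 19.8 CPM in the other 9 libraries (-1.18 ± 0.15, adjusted p = 2.16e-05). An unannotated locus on chromosome 5 (14088074 to 14090094, minus strand) was at 9.43 to 19.5 CPM in the other genotypes and at 1.8, 2.42 and 1.19 CPM in the double mutant (-3.89 ± 0.24, adjusted p = 5.71e-08). The non-coding AT3G05945 was at 25.7, 17.5 and 18.3 CPM in pp1r3-2 and 6.1 to 12.6 CPM elsewhere (-1.31 ± 0.28, adjusted p = 0.00163). AT2G05695, also non-coding, was at 2.83, 3.51 and 3.02 CPM in pp1r3-2, at 0.0516 CPM in 1 topp4-1 library and at 0 in the other 8, so no fold is given. AT3G19680 fell with topp4-1 in both backgrounds, by 0.47 in wild type and by 0.70 in pp1r3-2 (adjusted p = 0.0465) on the log2 scale. Its interaction of -0.23 ± 0.16 did not pass (adjusted p = 0.29).

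Other strong interactions lay outside the lists. MSRB6, a methionine sulfoxide reductase, was at 34.5, 29.1 and 49.4 CPM in wild type, 22.8, 14.1 and 15.4 in pp1r3-2, 0.152, 0.206 and 0.411 in topp4-1 and 17.7, 9.33 and 13.8 in the double mutant (6.77 ± 0.52, adjusted p = 5.94e-07). DCF, which places ferulate in cutin, fell to 2.19, 3.92 and 3.34 CPM in topp4-1 and was at 46.9, 64.0 and 57.4 in the double mutant (4.66 ± 0.43, adjusted p = 4.68e-06). The hydroperoxide lyase gene CYP74B2 and the MATE transporter gene DTX18 had interactions of 4.23 ± 0.57 and 4.08 ± 0.42. ABR1, an ERF repressor, was low in all mutants, at 16.4, 17.5 and 28.4 CPM in wild type and 0.279 to 0.823 CPM in the other 9 libraries (5.32 ± 0.61, adjusted p = 8.96e-06). For PGLP1A the call rests on scattered values, since wild type was at 42.5, 4.39 and 6.48 CPM and the double mutant at 41.4, 4.69 and 6.27 CPM (5.08 ± 1.38, adjusted p = 0.013).

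Among the lower calls HIS1-3, a linker histone induced by drought, was at 5.09, 2.89 and 2.55 CPM in wild type, 9.87, 22.7 and 16.7 in pp1r3-2, 93.5, 93.1 and 68.0 in topp4-1 and 8.45, 9.8 and 16.4 in the double mutant. GSTF3, a glutathione transferase, was at 4.45, 4.75 and 3.35 CPM in wild type, 20.0, 19.1 and 18.9 in pp1r3-2, 49.3, 51.6 and 50.2 in topp4-1 and 12.2, 10.6 and 13.7 in the double mutant. Both rose in each single mutant, with the highest levels in topp4-1, and had interactions of -5.10 ± 0.46 (adjusted p = 3.97e-06) and -4.26 ± 0.20 (adjusted p = 6.01e-09). ATGRP9, a glycine-rich protein gene, was at 842, 732 and 599 CPM in topp4-1 and at 6.8 to 28.7 CPM in the other 9 libraries (-4.67 ± 0.32, adjusted p = 1.97e-07). UGT91C1, a glycosyltransferase, SRK2J, a SnRK2 kinase, and the lipase LIP2 had interactions of -5.97 ± 0.54, -6.14 ± 0.83 and -6.14 ± 0.87. Each had mean pp1r3-2 and double mutant levels between wild type and topp4-1. These genes held only 53, 29 and 25 counts in all of wild type, which limits the size of their folds. UMAMIT33, LAC7, HIPP22 and TRX8 were at least 14.4 CPM in each topp4-1 library and at most 10.7 CPM elsewhere. M17, a late embryogenesis abundant protein gene, had 22.9, 18.7 and 26.5 CPM in topp4-1 but only 5 counts in all of wild type and 4 in the double mutant, so its fitted value is not given.

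Flower and shoot meristem markers moved with the genotypes, and 3 of the 4 tested were called lower. Their summed level was 6 to 10.7 CPM in wild type, 10.5 to 24.2 CPM in pp1r3-2, 27 to 37.9 CPM in topp4-1 and 3.33 to 23.8 CPM in the double mutant. The pollen and seed markers held no gene with enough counts, and 1 of 2 tested root markers was lower, at sums of 1.42 to 3.25 CPM in topp4-1 and at most 1.6 CPM elsewhere. Of 6 vascular markers, 2 were higher, and the 33.3% called lay below the 38.3% of all genes tested. Their part in the interaction calls was not tested.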

How the data were processed

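Poly-A selected leaf RNA was sequenced from NEBNext Ultra libraries, as the labels' protocols state. The authors deposited raw read counts for each gene in 1 table. The submitters' processing notes name HISAT2 2.0.5 as a tool. No counting tool, strand setting, genome build or annotation release is given in the sources used here. Without the strand setting, overlapping or antisense genes may share reads. Of the identifiers, 32548 matched TAIR10.1 and 99.95% of these had equal coordinates, so positions are given on that build.

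Genes were kept by filterByExpr (minimum count 10, minimum total 15), and libraries were scaled with TMM. All 15 libraries entered 1 robust quasi-likelihood fit of genotype means (edgeR 4.0.16, R 4.3.3), which left 10 residual degrees of freedom. Simple effects and the interaction are contrasts of this fit, adjusted by Benjamini-Hochberg over 20037 genes and called under 0.05. Values are log2 ± SE, the SE being the size of the log2 value over the root of the F statistic. CPM was computed from the deposited counts. The model was tested on simulated counts. It recovered nearly all simulated 4-fold interactions but missed many 2-fold ones. The recovery first required was not reached at 2-fold, and that requirement was then lowered, so a gene that did not pass may still have an interaction of that size.

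The 30 lists hold 429 genes, of which 410 were tested. The lists, the members and the naming rule were chosen with earlier results of these data known. The rule took the 12 highest and 12 lowest calls of at least 5 CPM, up to 4 members per list and the TOPP genes. Both ends were taken among nuclear protein-coding genes with a symbol. Other named genes, such as XERO2, ASN1, SEN1 and LHY, were added after their values were seen. Alternatives were RLE factors, library totals, other filters, DESeq2 1.42.0, a fit of 12 libraries, a replicate block, a 2-fold minimum and leaving out each library. Leaving out both libraries that stood apart was added after seeing the data, as was a replicate block in pp1r3-2 and the double mutant alone. Every same-numbered pair of these genotypes correlated over 0.1 in its deviations from the group means (r of 0.256, 0.217 and 0.447), which no other pair of genotypes did. The 7 motifs were searched on both strands in 19318 promoters.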

Additional observations from a re-analysis of the deposited data

Results flagged for a closer look

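The effect of topp4-1 differed between the wild-type and pp1r3-2 backgrounds for 7679 genes by the test of the interaction itself (edgeR, adjusted p under 0.05). The pp1r3-2 effect passed the test in opposite directions in both backgrounds for 522 genes that fell in wild type and rose in topp4-1, and for 739 that rose in wild type and fell in topp4-1. At least 2-fold in each background, these were 87 and 106 genes. The first group included CLH1, PDF1.2B and PDF1.2C, and the second HIS1-3, GSTF3, UGT91C1 and SRK2J. The difference between both pp1r3-2 effects is the same interaction and not a separate result.

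The topp4-1 effect passed the test in opposite directions for 3 genes, each up in wild type and down in pp1r3-2. AT4G27450 had an interaction of -3.18, ARR5 of -2.52 and an unannotated locus on chromosome 5 (14088074 to 14090094) of -3.89. For topp4-1 in pp1r3-2 their adjusted p in the edgeR test was 0.0465, 0.0101 and 2.28e-07. For that locus the double mutant libraries, at 1.8, 2.42 and 1.19 CPM, lay below all 9 others, and for ARR5 they overlapped with wild type.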

How the results depend on the processing

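With RLE factors, library totals, other filters, DESeq2, 12 libraries, a replicate block or any of the 12 libraries of the contrast left out, the interaction was called for 6565 to 8512 genes, and none of the 7679 calls changed sign. With library totals as the scale, 45.2% of the calls were higher. Of 18 same-numbered pairs, 4 correlated above 0.1, 3 of them between pp1r3-2 and the double mutant. Wild type and the double mutant had negative values of like size for replicates 1 and 3 (-0.337 and -0.324). On average 4 of 12 libraries correlated best with libraries of their own number, so a pairing by number is not settled. With the replicate block over all genotypes 7873 genes had an interaction call, 7482 of them among the 7679, and 8 genes were called for topp4-1 in pp1r3-2. With the block in pp1r3-2 and the double mutant alone, these counts were 8380, with 7606 shared, and 23 (23 lower), and none of the 144 genes followed by name lost or gained its call.

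A minimum log2 change of 1 left 3398 interaction calls (1933 higher, 1465 lower), 3821 for topp4-1 in wild type (1572, 2249), 4 for topp4-1 in pp1r3-2 (4 lower), 780 for pp1r3-2 in wild type (386, 394), 2829 for pp1r3-2 in topp4-1 (1681, 1148) and 546 for the double mutant (247, 299). DESeq2 called 59 genes for topp4-1 in pp1r3-2 (9 higher, 50 lower). Without both libraries that stood apart, that count was 11, all lower, and the double mutant differed from wild type in 887 genes (483 higher, 404 lower). TOPP2, not called, changed sign with RLE factors (0.0042), a filter of 1 CPM (0.0142) and DESeq2 (0.0038), and ran from -0.0474 to 0.0616 with 1 library left out.

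Leaving out 1 library gave 2 to 10 calls for topp4-1 in pp1r3-2 (0 to 1 higher, 2 to 9 lower), 2394 to 4422 for pp1r3-2 in wild type (1321 to 2359 higher, 1073 to 2063 lower) and 1381 to 3006 for the double mutant (756 to 1802 higher, 625 to 1204 lower). The cause of these shifts was not tested. WRKY33, CYP71A12, MBF1C, DREB2A, DREB1B, DREB1C, CYCD3-3 and PCNA lost their call in 5 or more settings. Genes under about 1 CPM in a group have folds that this depth limits.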
